A study of Mus musculus with 6 samples.

Results

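The genes that copy the genome in S phase were followed in cardiac fibroblasts (CFs) cultured from wild type (WT) and CharmeKO mice. The group holds 38 genes, taken by name for their role, with earlier results of these data known: 10 that license replication origins, 5 that fire them, 12 of the replication fork and its polymerases, 4 that make nucleotides, 4 regulators of the passage from G1 to S phase, and 3 that rebuild chromatin and DNA methylation behind the fork. All 38 were found among the 19446 genes of the table, and all 38 passed the filter on low reads. The member library with the fewest reads was WT 2 for *Orc1*, with 33.

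Before a cell copies its DNA, the origin recognition complex, Cdc6 and Cdt1 load the ring of Mcm2 to Mcm7 onto origins, which is called licensing. In S phase the ring is switched on by Cdc45 and the GINS complex and becomes the helicase that opens the fork, while polymerase alpha and primase start each strand, polymerases delta and epsilon extend it on the sliding clamp PCNA, and Fen1 and Lig1 join the lagging-strand pieces. Many of these genes are transcribed together shortly before S phase, when cyclin-dependent kinases release E2F transcription factors from the retinoblastoma proteins. In a heart at rest most fibroblasts do not divide, whereas in serum-rich culture they do, so the RNA of these genes is commonly read as a sign of how much a culture is proliferating.

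The study asked how the loss of the long non-coding RNA *Charme* alters resident CFs, and bulk poly(A) RNA sequencing of cultured CFs compared 3 WT with 3 CharmeKO libraries. Both groups come from mice on the C57BL/6J background, aged 5 weeks by the sample titles. The study's methods for explant culture give a range of ages around 5 weeks. CharmeKO mice carry a polyadenylation signal inserted in the *Charme* locus in all their cells, whereas WT mice carry the intact locus. Per the study's methods, the cells of both groups grew out of atrial tissue pooled from littermates, on fibronectin-coated plates in IMDM with fetal bovine serum, and early passages were used, so that what is described is a dividing culture of atrial outgrowth cells and not the fibroblasts of the intact heart. Same-numbered WT and CharmeKO libraries varied together across genes, least for number 3, and they are called pairs here. The labels do not say what the libraries of a pair share and do not say whether the libraries came from separate cultures. P-values therefore measure the spread between these libraries, part of which may be technical.

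The libraries held 38330019 to 46797446 reads assigned to genes. The feature taken as the *Charme* transcript, an inference from its missing Ensembl identifier, was covered by 5, 15 and 11 reads across the WT libraries but by 0, 6 and 3 reads across the CharmeKO libraries, which is too few to check the labels. The defining fibroblast markers were all present (9 of 9, summed level 25285 to 53554 in WT and 33377 to 44302 in CharmeKO, in CPM, counts scaled to the total of the library). Endothelial markers (4 of 6 in the table) summed to 5.39 CPM at most and cardiomyocyte markers (3 of 7) to 18.5 CPM at most. Macrophage and leukocyte markers summed to 40.6 to 195 CPM in WT and 18.0 to 417 CPM in CharmeKO, and smooth muscle and pericyte markers to 1337 to 6152 CPM and 789 to 3618 CPM. Mesothelial markers (6 of 7 in the table) summed to 37.8 to 201 CPM in WT and 21.3 to 242 CPM in CharmeKO. *Ptprc* was at 0 reads in CharmeKO 3, *Cdh5* in WT 2 and CharmeKO 3, and *Ryr2* in CharmeKO 2 and 3.

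The letters that E2F binds were looked for in the promoters of the members, since E2F factors are the best-known regulators of this group. RefSeq windows of 300 bases, 250 before and 50 after a transcription start on the GRCm38.p6 build, were found for 33 of the 38 members, and none for *Pole*, *Ccne2*, *Mcm4*, *Gins1* and *Gins2*. The words searched, on both strands, were TTTCCCGC, TTTGGCGC, TTTCGCGC and TTTGCCGC. A match stood in 14 of the 33 members (42.4%), against 704 of all 27025 genes with a window (2.6%) and 522 of the 11306 such genes that were tested here (4.62%). The 14 were *Orc1*, *Cdc6*, *Cdt1*, *Mcm3*, *Mcm5*, *Mcm6*, *Mcm7*, *Gins3*, *Rfc3*, *Pola1*, *Pold1*, *Lig1*, *E2f2* and *Uhrf1*. By role, 7 of the 9 licensing genes with a window held a match, and 0 of the 4 nucleotide synthesis genes. In 9 members the match lay wholly before the start, and 100 bases around it are shown for the licensing genes that have one, for a polymerase subunit and for *Uhrf1*, with *Gins3* for contrast because the libraries with the lowest level of the other genes shown were not its lowest. Capitals mark the matched words, read 5′ to 3′ on the strand of the gene.
Orc1, chr4:108579354-108579453, plus strand, bases 100 to 1 before the start: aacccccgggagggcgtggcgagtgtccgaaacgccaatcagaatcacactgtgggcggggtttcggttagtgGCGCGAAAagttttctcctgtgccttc
Cdc6, chr11:98907998-98908097, plus strand, bases 153 to 54 before the start: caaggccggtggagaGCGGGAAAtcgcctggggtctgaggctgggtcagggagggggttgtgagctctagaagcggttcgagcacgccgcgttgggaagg
Mcm5, chr8:75109341-75109440, plus strand, bases 168 to 69 before the start: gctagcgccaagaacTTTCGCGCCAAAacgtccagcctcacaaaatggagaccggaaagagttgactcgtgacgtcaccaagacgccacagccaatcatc
Mcm6, chr1:128359731-128359830, minus strand, bases 125 to 26 before the start: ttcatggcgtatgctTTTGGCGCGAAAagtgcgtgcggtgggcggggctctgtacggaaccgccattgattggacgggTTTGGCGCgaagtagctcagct
Mcm7, chr5:138171964-138172063, minus strand, bases 180 to 81 before the start: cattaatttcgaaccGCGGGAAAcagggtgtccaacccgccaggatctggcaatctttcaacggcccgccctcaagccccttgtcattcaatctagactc
Pola1, chrX:93632209-93632308, minus strand, bases 153 to 54 before the start: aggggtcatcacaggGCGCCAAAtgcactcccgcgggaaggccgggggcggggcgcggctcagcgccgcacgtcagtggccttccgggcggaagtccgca
Uhrf1, chr17:56304113-56304212, plus strand, bases 200 to 101 before the start: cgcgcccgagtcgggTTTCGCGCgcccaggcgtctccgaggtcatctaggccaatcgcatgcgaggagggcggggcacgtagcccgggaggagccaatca
Gins3, chr8:95633459-95633558, plus strand, bases 100 to 1 before the start: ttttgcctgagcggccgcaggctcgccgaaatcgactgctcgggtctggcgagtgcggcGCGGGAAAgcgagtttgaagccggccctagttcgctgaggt

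In *Mcm5* and in the farther stretch of *Mcm6* the capitals run over 2 matches that overlap on opposite strands. *Mcm6* had 3 matches in all. The match of *Uhrf1* belongs to the window of the start at chr17:56304313. The window of its start at chr17:56303337, close to the 5′ end of the gene at 56303321, held no E2F word. Before the start means before the RefSeq start. By the GENCODE bounds of the genes, the upstream matches of *Orc1*, *Cdc6*, *Mcm7*, *Gins3*, *Rfc3* and *Uhrf1* lay inside the gene. Those of *Mcm5*, *Mcm6* and *Pola1* lay outside it. In 30 of the 39 windows of members, the bases just after the start were found in a GENCODE transcript of the gene. The words also stood after the start in 7 members. The CCAAT box, searched as CCAAT on both strands and known from promoters of cell cycle genes, was in 20 of 33 members (60.6%) against 41.1% of all genes with a window and 42.6% of those tested. TTTGAA, the CHR element that marks genes of the later G2 and M phases, was in 5 of 33 members (15.2%) against 20.2% and 14.3%. A match is a word in a window, and no binding was measured here.

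**Figure D1:**
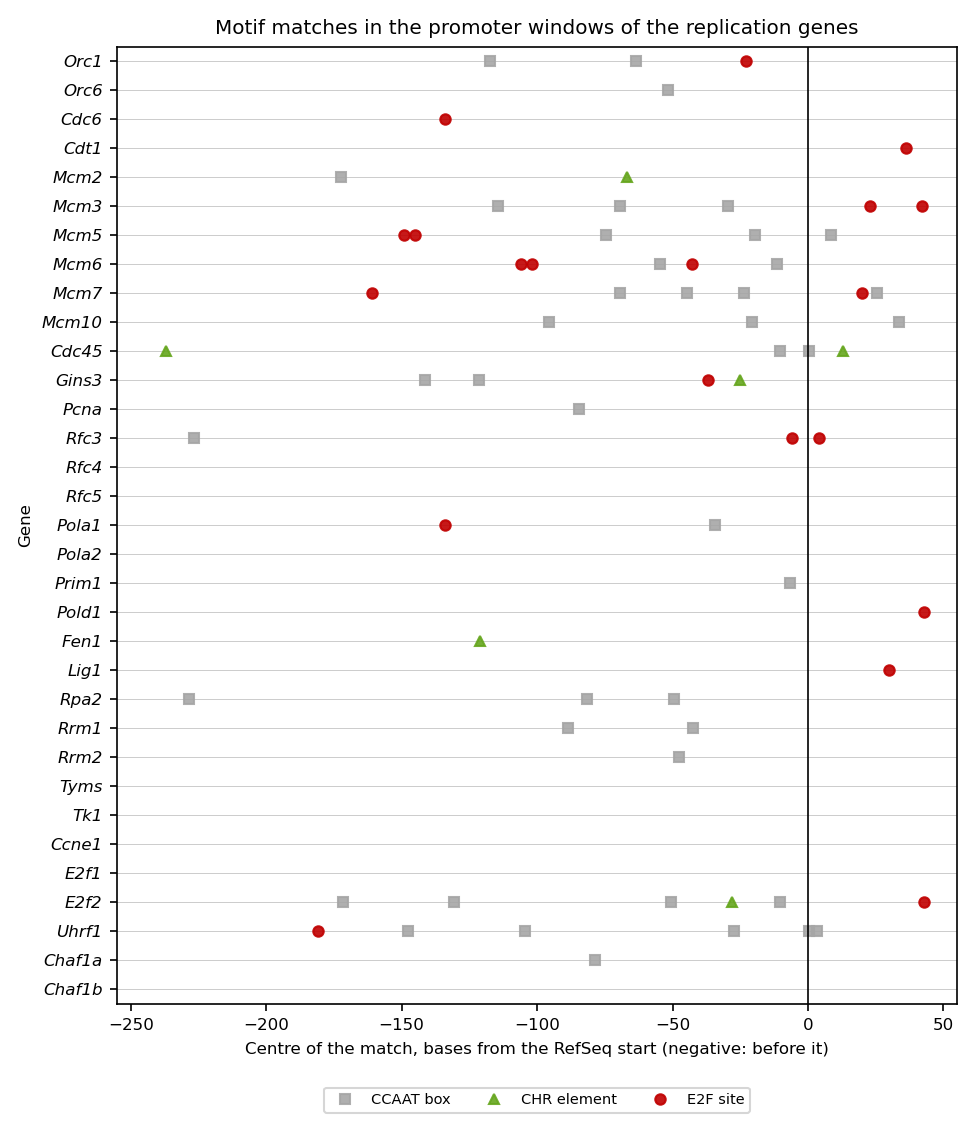
Each row is a replication gene with a RefSeq promoter window, and each point the centre of a match, in bases from the transcription start, to an E2F word (red circles), a CCAAT box (grey squares) or a CHR element (green triangles). E2F words stand in 14 of 33 genes, in 9 of them wholly before the start, and licensing genes at the top hold most of them.

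Loss of *Charme* left no call among the replication genes. With limma, 0 of 38 members passed the adjusted threshold of 0.05 (background 0%, 0 of 15948 genes) and 0 had an unadjusted p under 0.05 (background 0.897%, 143 genes). The lowest adjusted p of a member was 0.9999. With the replicate number as a block, 0 of 38 again passed the adjusted threshold (background 0%) and 0 the unadjusted one (background 5.37%), the lowest adjusted p being 0.7997. DESeq2 on the recovered reads called 0 members (background 0.0504%, 8 genes), and 0 with the block (background 0.426%, 64 genes). In 0 members did all CharmeKO libraries lie below all WT libraries (background 1.98%), and in 0 did they lie above them (background 2.14%).

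In size, most differences were small beside the spread between libraries of a genotype. *E2f1* (2112 ± 199 in WT and 1779 ± 136 in CharmeKO, SD, n = 3) and *Pola2* (693 ± 85.9 and 787 ± 91.5) differed by more than either SD. The log2 fold change, CharmeKO minus WT on the log2(value + 1) scale, was above 0 in 20 members and below 0 in 18, with a median of 0.026 against 0.0022 over all 15948 genes. It ran from -0.41 for *Ccne2* to 0.33 for *Rrm1*. The median standard error (SE) was 0.39 without and 0.16 with the block. The 95% interval of the blocked fit held 0 in all 38 members, and it stayed within 1 log2 unit in either direction in 37, the exception being *Ccne1*, and within 0.5 in 17. These intervals hold the differences in single genes that the 6 libraries leave possible, and they are not a limit of detection. Summed over the members, the level was 1052, 581 and 989 CPM in WT 1, 2 and 3 (874 ± 256, SD, n = 3) and 1045, 682 and 981 CPM in CharmeKO 1, 2 and 3 (903 ± 194, SD, n = 3). Within pairs 1, 2 and 3 the CharmeKO sum was 99.3%, 117% and 99.2% of the WT sum.

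The pairs did not point one way. The median difference of the members came to 0.060, 0.14 and -0.18 in pairs 1, 2 and 3, with 15, 12 and 25 members lower in CharmeKO. Only 5 members were higher in CharmeKO in all 3 pairs (*Cdc6*, *Mcm10*, *Rfc4*, *Pola2* and *Prim1*, background 16.4% of all genes), and 4 were lower in all 3 (*Rpa2*, *Ccne2*, *E2f1* and *Chaf1a*, background 14%). Shares of 5 and of 4 in 38 lie near or below that background. Differences over 0.5 log2 units within a pair were found in 0 members in pair 1, in *Mcm10*, *Rrm1* and *Ccne2* in pair 2, and in *Rrm2* and *Ccne1* in pair 3. Marker sums of several other cell types also had their lowest CharmeKO share in pair 3. The CharmeKO sum of smooth muscle and pericyte markers was 92.0%, 59.0% and 22.4% of the WT sum in pairs 1, 2 and 3, with 7 of 9 markers lower in pair 3. Macrophage and leukocyte markers stood at 214%, 294% and 44.4% (9 of 9 lower in pair 3), mesothelial markers at 121%, 241% and 36.7% (6 of 6 lower), and endothelial markers at 114%, 73.2% and 31.7% (3 of 3 tested lower). Fibroblast markers stood at 132%, 82.7% and 135%, and cardiomyocyte markers at 133%, 76.3% and 121%. Their part in the differences of the replication genes was not tested.

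**Figure D2:**
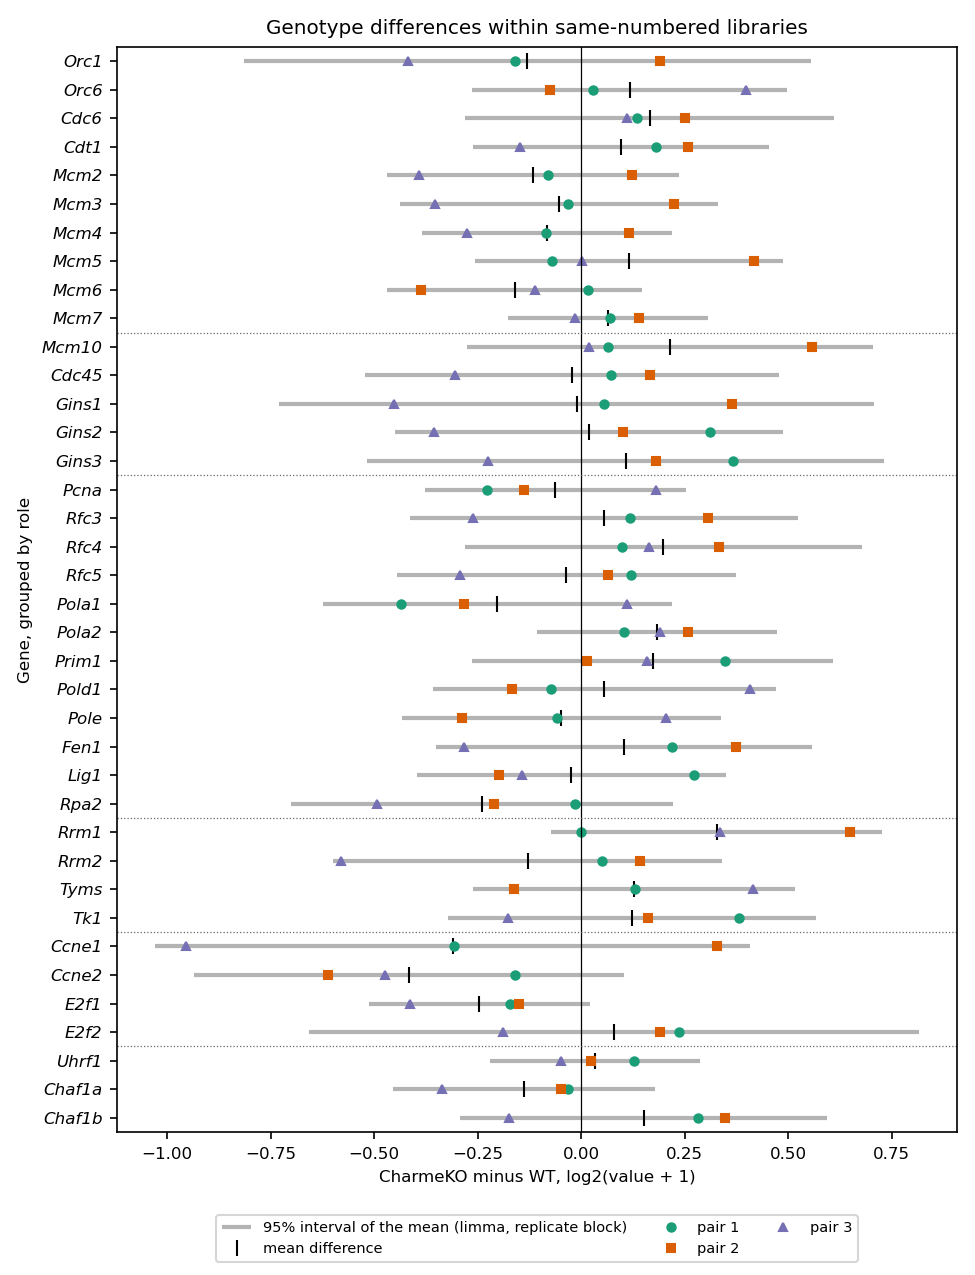
Each row is a replication gene and the horizontal axis is CharmeKO minus WT on the log2(value + 1) scale, with a coloured point for each of the 3 pairs, a black tick for their mean and a grey bar for the 95% interval of the blocked limma fit. All 38 bars cross 0, and the points of pair 3 (triangles) lie to the left of 0 in 25 genes.

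Licensing genes had 5 members above and 5 below 0, between -0.16 for *Mcm6* and 0.17 for *Cdc6*. All values given for single genes are the deposited size-factor-normalised read counts, and fold changes carry their SE from limma without the block (n = 3 per genotype). *Orc1*, the cell-cycle-regulated large subunit of the origin recognition complex, stood at 165, 35.2 and 133 in WT 1, 2 and 3 and at 148, 40.3 and 99.2 in CharmeKO 1, 2 and 3 (-0.13, SE 0.75). It was the licensing gene that varied most between libraries, 4.70-fold from the lowest to the highest, and both libraries numbered 2 were lowest. *Cdc6*, the ATPase that brings the helicase ring to the origin, stood at 227, 119.6 and 321 in WT and 250.0, 143 and 346 in CharmeKO (0.17, SE 0.49). *Cdt1*, its partner in loading, stood at 911, 541 and 679 and 1033, 647 and 612 (0.096, SE 0.30). *Cdc6* was higher in CharmeKO within each pair by 0.11 to 0.25 log2 units, whereas *Cdt1* was higher in pairs 1 and 2 and lower in pair 3.

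The 6 subunits of the Mcm ring are needed in equal number in the complex, and all 6 had their lowest levels in the same libraries. *Mcm2* was measured at 1989, 1073 and 2116 in WT and 1882, 1168 and 1612 in CharmeKO (-0.12, SE 0.32). *Mcm5* was at 1428, 446 and 1445 and 1359, 597 and 1446 (0.12, SE 0.56), the widest swing of the ring, and *Mcm7* at 1544, 1205 and 2003 and 1620.0, 1328 and 1983 (0.065, SE 0.25), the narrowest. Those libraries were WT 2 and CharmeKO 2, below the other 4 in every subunit, and the genotypes overlapped. *Mcm3*, *Mcm4* and *Mcm6* had fold changes of -0.054, -0.082 and -0.16, and *Orc6*, a small subunit of the origin complex, 0.12. Per kb of exon, the mean level of the 6 libraries ran from 236 for *Mcm2* to 496 for *Mcm4*, and the highest subunit exceeded the lowest by 1.98- to 3.11-fold within a library. *Mcm7* shares exons on its strand with the microRNA genes *Mir25* and *Mir93*, whose reads cannot be separated from it in the table.

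The genes that fire the licensed origins lay between -0.022 and 0.21. *Mcm10*, which helps the ring to start unwinding, was at 370.3, 153 and 437 in WT and 387, 225 and 443 in CharmeKO (0.21, SE 0.48), and its excess came mostly from pair 2 (0.56, against 0.065 and 0.018 in pairs 1 and 3). *Cdc45*, the helicase cofactor, was at 297, 126 and 350.5 and 312, 142 and 284 (-0.022, SE 0.51). *Gins1*, a subunit of the GINS complex that completes the helicase, was at 108, 71.5 and 138 and 112, 92.4 and 101 (-0.011, SE 0.37). All of them overlapped between genotypes. *Gins2* and *Gins3*, subunits of the same complex, differed by 0.019 and 0.11. *Gins3* kept nearly the same level in libraries 1 and 2 of WT (100.45 and 101), so that it was among the members in which the libraries numbered 2 did not stand lowest.

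At the fork, 6 genes lay above and 6 below 0. *Pcna*, the sliding clamp and the member with the highest level per kb of exon (mean 765), was at 2441, 1241 and 1935 in WT and 2083, 1128 and 2191 in CharmeKO (-0.062, SE 0.35), and it has 2 pseudogene copies, *Pcna-ps1* and *Pcna-ps2*, that can take or lose reads in counting. *Pola1*, the catalytic subunit of polymerase alpha, was at 729, 408 and 745 and 538, 335 and 804 (-0.20, SE 0.40). *Prim1*, the primase that lays the RNA primer, was at 273, 201 and 322 and 347, 203 and 359 (0.17, SE 0.34). The polymerase alpha subunits thus differed in sign: *Pola1* was lower in CharmeKO in pairs 1 and 2, and *Pola2* higher in all 3 pairs (0.18, SE 0.19), neither past the test. *Fen1*, the flap nuclease, was at 947, 419 and 778 and 1104, 543 and 639 (0.10, SE 0.40). *Rpa2*, a subunit of the protein that coats single-stranded DNA, was at 478, 172 and 424 and 473, 148 and 301 (-0.24, SE 0.56). Its difference was -0.014, -0.21 and -0.49 in pairs 1, 2 and 3. The polymerase genes *Pold1* and *Pole* (0.056 and -0.048), the ligase *Lig1* (-0.024) and the clamp loader genes *Rfc3*, *Rfc4* and *Rfc5* (0.055, 0.20 and -0.036) all lay within 0.2 log2 units of 0.

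Nucleotide synthesis held the member with the largest positive difference. *Rrm1*, the large subunit of ribonucleotide reductase, which makes deoxynucleotides, was at 10062, 4538 and 5293 in WT and 10054, 7110.0 and 6672 in CharmeKO (0.33, SE 0.34). The libraries of pair 1 lay close together, and CharmeKO was higher by 0.65 and 0.33 log2 units in pairs 2 and 3. The 95% interval of the blocked fit was -0.073 to 0.73. *Rrm2*, the small subunit whose level limits the enzyme in S phase, was at 2308, 597 and 1959 and 2389, 659 and 1311 (-0.13, SE 0.65), lower by 0.58 in CharmeKO in pair 3 and higher in pairs 1 and 2. Per kb of exon *Rrm1* stood at 1.10, 1.91 and 0.68 times *Rrm2* in WT and at 1.06, 2.72 and 1.28 times in CharmeKO, highest in both libraries numbered 2. *Tyms*, thymidylate synthase, was at 1278, 819 and 1023 and 1399.8, 731 and 1365 (0.13, SE 0.32), and a pseudogene copy, *Tyms-ps*, can share its reads. *Tk1*, the thymidine kinase of dividing cells, was at 469.8, 209 and 728 and 612, 234 and 644 (0.12, SE 0.58). Both genotypes overlapped in all 4 genes.

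Of the G1/S regulators, 3 of 4 lay below 0 and none passed the test. *Ccne1*, cyclin E1, which drives the kinase Cdk2 at the start of S phase, was at 1285, 358 and 1296 in WT and 1039, 449 and 669 in CharmeKO (-0.31, SE 0.58). Its pairs disagreed, with -0.31, 0.33 and -0.95, the last being the largest difference within a pair of any member. *Ccne2*, cyclin E2, was at 364, 80.1 and 372 and 326, 52.1 and 268 (-0.41, SE 0.90), below WT in each pair by 0.16 to 0.61. It was the member that varied most between libraries, 7.15-fold. *E2f1*, the activating transcription factor of the group, was at 2182, 1888 and 2266 and 1936, 1701 and 1700.3 (-0.25, SE 0.16), below WT in each pair by 0.15 to 0.41. *E2f2*, its relative, was near the bottom of the members, with 61.1, 39.5 and 72.5 and 72.1, 45.2 and 63.5 (0.079, SE 0.42), and per kb of exon *E2f1* stood 41.5- to 74.0-fold above it. The blocked fit of limma gave unadjusted p-values of 0.064 for *E2f1*, 0.088 for *Rrm1* and 0.093 for *Ccne2*, the 3 lowest of the members, each with an adjusted p of 0.7997.

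Of the chromatin genes, 2 lay above and 1 below 0. *Uhrf1*, which guides the maintenance of DNA methylation on newly copied strands, was at 1428, 795 and 2002 in WT and 1560.4, 808 and 1934 in CharmeKO (0.034, SE 0.45). *Chaf1b*, a subunit of the factor that deposits histones behind the fork, was at 663, 243 and 492 and 806, 309.7 and 436 (0.15, SE 0.49), and its partner *Chaf1a* differed by -0.14. Same-numbered libraries of *Uhrf1* differed by 0.13 log2 units at most, the smallest such limit of the 38 members.

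The level of these genes differed mostly with the replicate number of the library. Both libraries numbered 2 lay below the other 4 in 32 of 38 members (background 18.4% of all genes), a count made after the values had been seen. The exceptions were *Cdt1*, *Gins3*, *Rfc3*, *Pola2*, *Rrm1* and *E2f1*. Libraries numbered 1 or 3 stood lowest in 0 members each (background 21.8% and 9.07%). In the median member, the mean of the libraries numbered 2 was 56.4% of that of the libraries numbered 1 and 56.7% of that of the libraries numbered 3. *Ccne2* was furthest apart (19.1% and 20.6%), whereas *Pola2* kept 94.2% of the level in libraries 1 and *Rrm1* 97.3% of that in libraries 3. On plain CPM the count was 32 again (background 15.1%), and on CPM without the 10 genes of the highest mean level it was 31 (background 13.8%). In bulk RNA, fewer cells in S phase and less of these RNAs per cell cannot be told apart.

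**Figure D3:**
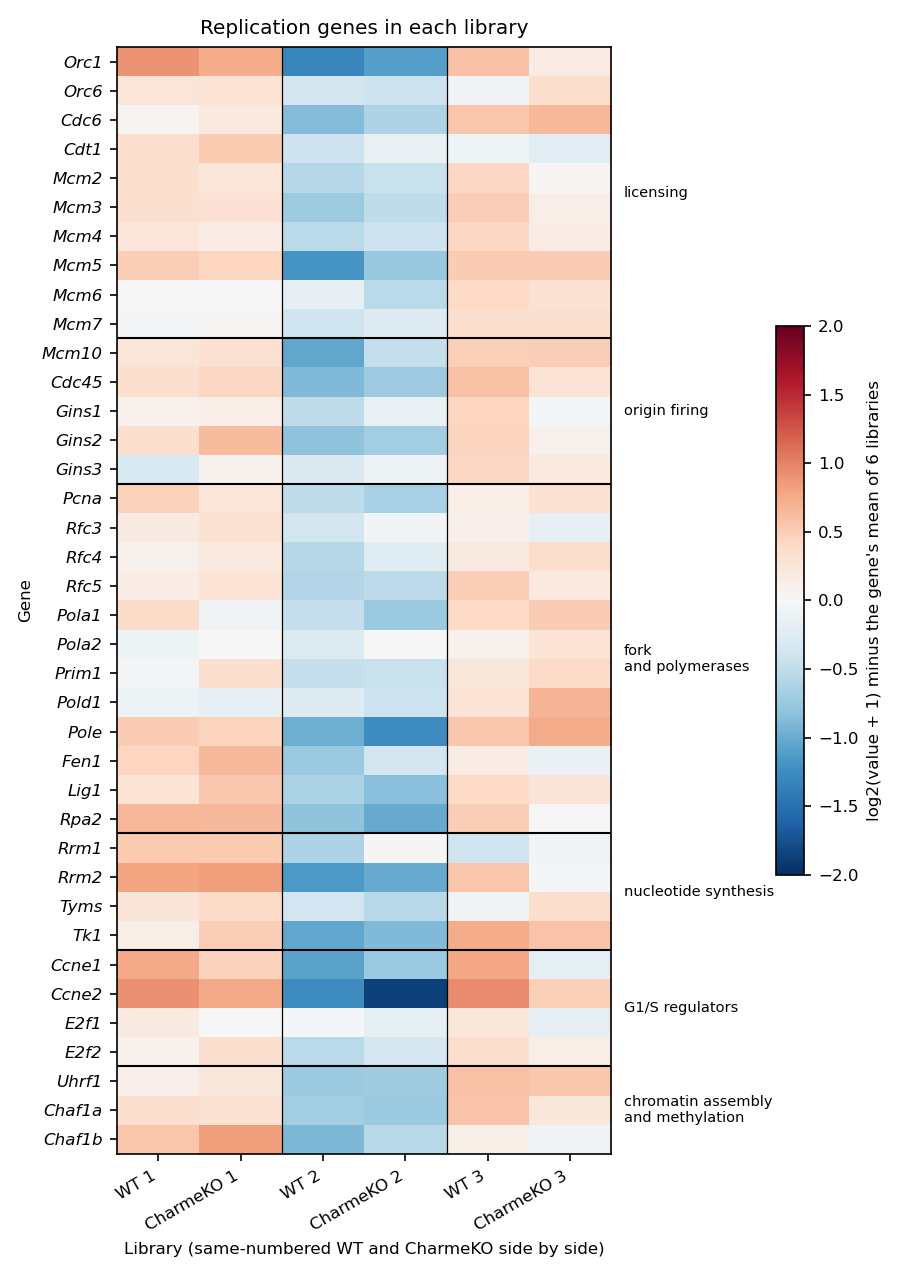
Rows are the 38 replication genes in 6 role groups and columns the 6 libraries, with same-numbered WT and CharmeKO libraries side by side. Colour is log2(value + 1) minus the mean of the gene over the libraries, blue for low and red for high, and the middle columns, WT 2 and CharmeKO 2, are the lowest of the row in 32 genes.

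The replicate number was also tested as a factor, again after the values had been seen. limma's F test with genotype in the model passed the adjusted threshold in 11 of 38 members (background 8.65%), namely *Mcm5*, *Pcna*, *Pole*, *Lig1*, *Rpa2*, *Rrm2*, *Tk1*, *Ccne2*, *Uhrf1*, *Chaf1a* and *Chaf1b*, with adjusted p-values of 0.0361 to 0.0497. edgeR's F test called 6 (background 4.11%) and DESeq2's likelihood ratio test 29 (background 32.2%). Of the variance of log2 level over the 6 libraries, replicate number held 92.3% in the median member and genotype 1.58%, against 73.8% and 5.91% in the median of all genes. Replicate number has more levels than genotype, so its share tends to be larger even where neither has an effect. *Uhrf1* had the highest share with number, 99.5%. *E2f1* was the exception, with 59.3% with genotype and 26.6% with number, and *Pola2* and *Rrm1* followed with 30.3% and 14.5% with genotype. *E2f1* was also the steadiest member, differing 1.33-fold between its lowest and highest library, against 2.27-fold in the median member and 2.12-fold in the median of all genes.

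**Figure D4:**
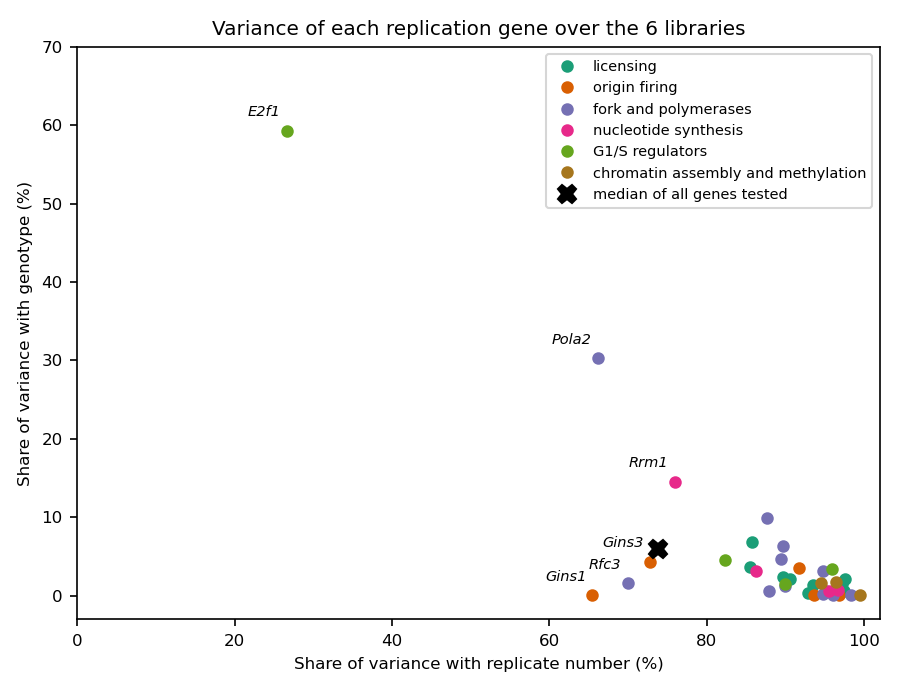
Each point is a replication gene, coloured by role, with the share of its variance over the 6 libraries that goes with replicate number on the horizontal axis and with genotype on the vertical axis, both in percent, and a cross at the medians of all genes tested. Most points crowd at the lower right, and *E2f1* alone has the larger share with genotype.

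Members with and without an E2F word in their window were set side by side. The ratio of the highest to the lowest library had a median of 2.24 over the 14 with a match and of 2.22 over the 19 without. Both libraries numbered 2 stood lowest in 11 of 14 and in 16 of 19 (background 18.4% of all genes). *Mcm5* and *Orc1*, whose matches are printed above, varied 3.24- and 4.70-fold, whereas *Gins3* and *Mcm7*, also with a match, varied 1.65- and 1.66-fold. *Ccne1*, *Rrm2* and *Tk1* varied 3.62-, 4.00- and 3.48-fold with no match in their windows.

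The rest of the pathway was described from lists of genes that are not members. Of 48 further replication genes (other origin, helicase, polymerase and fork protection genes), 0 were called for genotype, and 22 lay above and 26 below 0 (median -0.017). In this list 32 were lowest in both libraries numbered 2 (background 18.4% of all genes). The lowest p-values of that list were those of *Rpa3*, the smallest subunit of the single-strand binding protein (0.28, SE 0.25), and *Ung*, the uracil glycosylase of base repair (0.53, SE 0.54), whose WT 2 value of 36.3 stood apart from 119 to 134 in libraries 1 and 3 of both genotypes and 109 in CharmeKO 2. Of 25 G1/S switch genes (cyclins D, their kinases, and the E2F and retinoblastoma families), 0 were called, and 6 lay above and 19 below 0 (median -0.11). Here 17 were lowest in both libraries numbered 2 (background 18.4% of all genes). The leading genes were *Cdk4*, a kinase partner of cyclin D, and *E2f5*, a repressing E2F. *Cdk4* was at 8455, 7271 and 7718 in WT and 9744, 9914 and 9853 in CharmeKO (0.33, SE 0.15). Its unadjusted limma p was 0.061 without the block and 0.0215 with it (blocked adjusted p = 0.7997). *Cdk6*, also a kinase partner of cyclin D and named after its values were seen, went the other way (-0.27, SE 0.33). It was lower in CharmeKO in all 3 pairs (background 14% of all genes). Its unadjusted p in the blocked limma fit was 0.031 (adjusted p = 0.7997). These were the 2 of the 25 genes under 0.05 in that fit (background 5.37%). *E2f5* was at 387, 391 and 453 and at 328, 341 and 288 (-0.36, SE 0.21). The 3 CharmeKO values of *Cdk4* all lay above, and those of *E2f5* all below, the WT values, 1 gene of the 25 in each direction (background 2.14% of all genes above and 1.98% below), too few to read anything from.

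Mitosis genes, which follow S phase in the cycle, had the lowest values in the same libraries. All 23 were lowest in both libraries numbered 2 (background 18.4% of all genes), and 22 passed limma's F test of the number (background 8.65%). *Mki67*, a marker of dividing cells, was at 3994, 1478 and 5916 in WT and 3832, 1213 and 5930 in CharmeKO, and *Top2a*, the topoisomerase that untangles sister chromatids, at 3717, 1980 and 5181 and at 3504, 1373 and 5171. Neither separated the genotypes (-0.11, SE 0.72, and -0.20, SE 0.56), and 0 of the 23 were called for genotype. Of the 23, 7 lay above and 16 below 0 (median -0.11). In all 3 pairs, 9 were lower in CharmeKO (background 14% of all genes) and 2 were higher (background 16.4%). The sum of the 23 genes was 683, 276 and 903 CPM in WT and 696, 252 and 870 CPM in CharmeKO. The leading genes for genotype were *Cenpe*, a kinesin of the kinetochore (-0.40, SE 0.63), and *Kif20a*, a kinesin of cytokinesis (0.27, SE 0.63).

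**Figure D5:**
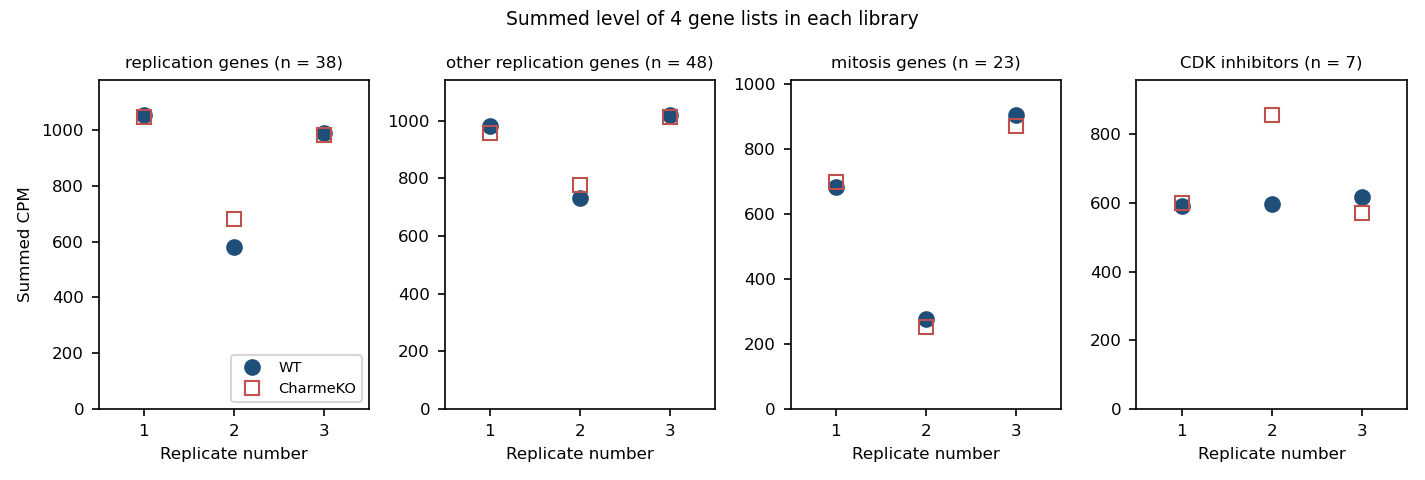
The summed level, in CPM, of the 38 replication genes, 48 other replication genes, 23 mitosis genes and 7 inhibitors of cyclin-dependent kinases is plotted for each library against replicate number, with filled circles for WT and open squares for CharmeKO. The replication genes stand at 581 and 682 CPM in the libraries numbered 2 and at 981 to 1052 CPM in the other 4, and the mitosis genes at 276 and 252 CPM against 683 to 903 CPM.

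Marker sums were compared between the same libraries. Fibroblast markers had their highest sums in the libraries numbered 2 (53554 CPM in WT 2 and 44302 CPM in CharmeKO 2). Smooth muscle and pericyte markers had the lowest sums of their genotype there (1337 CPM and 789 CPM), and macrophage markers did not (106 CPM in WT 2, between 40.6 and 195, and 312 CPM in CharmeKO 2, between 18.0 and 417). Single markers varied: 2 of the 9 smooth muscle and pericyte markers were lowest in both libraries numbered 2 (background 18.4% of all genes), and *Rgs5* was highest in both (997 and 201). Of the 9 fibroblast markers, 4 were highest in both libraries numbered 2, against 2564 of all 15948 genes, and *Vim* was lowest in both (85742 and 60556). *Col3a1* was the highest of its genotype in WT 2 (514618) but the lowest of its genotype in CharmeKO 2 (191059). The part of these markers in the low level of the replication genes was not tested.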

How the data were processed

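Cultured CFs of 3 WT and 3 CharmeKO libraries were analysed, grouped and numbered by their sample titles. STAR was used by the authors for alignment and strand-aware gene counting of uniquely mapped reads, and DESeq2 for normalisation. The unit of the deposited table is a normalised signal: each gene's reads over the size factor of its library. Dividing by the value of 1 read gave whole reads for 100% of 116676 values (within 1e-06). The table carries no coordinates and the study names GRCm39, whereas promoter sequences (RefSeq) and exon lengths (GENCODE) are GRCm38 models.

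On log2(value + 1), which understates changes of low genes, limma (trended prior variance, genotype as the only term) was fitted to 15948 genes, those reaching 10 reads in 2 or more libraries. P-values are two-sided, with Benjamini-Hochberg adjustment (threshold 0.05). edgeR and DESeq2 on the recovered reads, and other scalings, pseudocounts and filters, were alternatives. Scripts were tested on simulated data. Read counts vary between libraries by more than counting error, and edgeR and DESeq2 estimate that extra spread.

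Deviations of same-numbered libraries from their group means correlated across genes with r = 0.762, 0.514 and 0.217 (numbers 1, 2 and 3), against -0.643 to 0.222 for other combinations, highest for WT 2 and CharmeKO 3. All same-numbered combinations exceeded the minimum of 0.1, so numbers were taken as pairs. WT 2 with CharmeKO 3 exceeded it too (0.222, against 0.217 for number 3), so this check does not set pair 3 apart. The members and lists were chosen with earlier results of these data known. All members are named, 24 of them, fixed by name, with every library. Other lists are given by counts, with called genes or the 2 lowest p-values, and *Mki67* and *Top2a* in every library. Versions were R 4.3.3, limma 3.58.1, edgeR 4.0.16, DESeq2 1.42.0, Python 3.11.15 and matplotlib 3.10.9.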

Additional observations from a re-analysis of the deposited data

How the results depend on the processing

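The call of 0 members held in every fit run: without and with the replicate block, by limma, edgeR and DESeq2, under the other scalings, pseudocounts and filters, and without each library. The replicate block changed no call on a member. The median limma difference of the members was 0.026 with it and without it, which the balanced design fixes in advance. Over all genes limma called 0, DESeq2 8 and, in a fit added after the data were seen, DESeq2 with the block 64. edgeR called 0, with 158 genes at an unadjusted p under 0.05. The test of the replicate number found 11 members by limma (background 8.65% of all genes), 6 by edgeR (background 4.11%) and 29 by DESeq2 (background 32.2%). The causes of these differences between tools were not tested. Scaling by library totals moved *Cdc45* to 0.012 and *Gins1* to 0.023, above 0.

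Leaving out 1 library breaks a pair. The median difference of the members was 0.15, -0.33 and 0.20 without WT 1, 2 and 3, and -0.18, 0.30 and -0.13 without CharmeKO 1, 2 and 3. Leaving out both libraries numbered 1, 2 or 3, in blocked fits added after the data were seen, gave -0.018, -0.023 and 0.096. *E2f1* stayed between -0.32 and -0.19 and *Rrm1* between 0.098 and 0.67 when single libraries were left out. The other genes given in every library changed sign, with ranges of *Cdc6* -0.22 to 0.51, *Cdt1* -0.14 to 0.29, *Orc1* -0.81 to 0.39, *Mcm2* -0.43 to 0.075, *Mcm5* -0.44 to 0.53, *Mcm7* -0.12 to 0.25, *Mcm10* -0.25 to 0.51, *Cdc45* -0.47 to 0.33, *Gins1* -0.27 to 0.20, *Pcna* -0.33 to 0.24, *Pola1* -0.51 to 0.12, *Prim1* -0.014 to 0.44, *Fen1* -0.24 to 0.35, *Rrm2* -0.74 to 0.35, *Tyms* -0.034 to 0.43, *Tk1* -0.37 to 0.60, *Ccne1* -0.93 to 0.00068, *Ccne2* -1.14 to 0.41, *E2f2* -0.17 to 0.27, *Uhrf1* -0.33 to 0.40, *Chaf1b* -0.26 to 0.46 and *Rpa2* -0.70 to 0.21. None was called in any of these fits. What can be detected in a single gene is limited by the SE, whose median over the members was 0.39 log2 units without the block and 0.16 with it.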

Other observations

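The inhibitors of cyclin-dependent kinases, which hold cells before S phase, were described as a list of 7. Of these, 6 lay above and 1 below 0 for CharmeKO minus WT (median 0.21), and 0 were called by limma. In the blocked fit 1 had an unadjusted p under 0.05 (background 5.37% of all genes). *Cdkn2a*, the locus of p16 and p19Arf, was at 3359, 2080 and 3662 in WT and 3835, 3715 and 4764 in CharmeKO (0.47, SE 0.25). Its unadjusted limma p was 0.109 without the block and 0.031 with it (blocked adjusted p = 0.7997). It was higher in CharmeKO in 3 of 3 pairs (background 16.4% of all genes). *Cdkn2b*, which encodes p15, was at 4014, 1395 and 1715 in WT and 3247, 2101 and 2472 in CharmeKO (0.27, SE 0.41). *Cdkn1b*, which encodes p27 and accumulates in resting cells, is named after its values were seen: it was at 1296, 4025 and 2205 in WT and 1570.0, 3148 and 3568 in CharmeKO, so that WT 2 and not both libraries numbered 2 stood highest. *Rbl2*, a retinoblastoma family gene of resting cells and also named after its values were seen, was at 3475 in WT 2 and 3042 in CharmeKO 2, above the 1565 to 2371 of the other 4 libraries. Of the 25 G1/S switch genes, only 1 was highest in both libraries numbered 2, against 2564 of all 15948 genes.

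Cyclin D2 was the most abundant cyclin of the G1/S list. *Ccnd2* was at 63297, 31363 and 62767 in WT and 48091, 25246 and 64087 in CharmeKO, and *Ccnd1*, cyclin D1, at 24899, 7115 and 28372 and at 17606, 8683 and 20412. Both were lowest in the libraries numbered 2 of both genotypes and were named after their values had been seen. Levels of different genes are not divided by length here.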
